A study of Mus musculus with 17 samples.

Results

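Glucocorticoid-responsive genes were followed in mouse heart 5 days after myocardial infarction (MI). The group consists of 10 listed genes, Nr3c1, Fkbp5, Tsc22d3, Per1, Klf9, Klf15, Zbtb16, Sgk1, Lcn2 and Cdkn1a, and each had 1 row among the 31647 rows of the deposited count table. They were chosen on their role and by their measured values in the contrast of infarct zone (IZ) with sham, with earlier results of these libraries in view, so the difference between IZ and sham is given for them as a description and carries no test. Covariation between libraries of the same group was tested, since it does not use that difference.

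Male C57BL/6 J wild-type mice had the left anterior descending coronary artery tied off for good, so the infarct was not reperfused. Sham mice had the same operation without ligation, and both groups received isoflurane and buprenorphine. Per the study, mice were killed by cervical dislocation once a hemodynamic measurement had ended, and its part in the levels was not tested. RNA came from the IZ of 9 MI mice and from left ventricular tissue of 8 sham mice, all wild type and sampled 5 days after surgery. The 3′ ends of mRNA were sequenced (MACE-Seq) with unique molecular identifiers, short barcodes that mark single molecules. The sources used here give no plasma corticosterone, no hour of tissue collection and no batch.

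Glucocorticoids are adrenal steroids (corticosterone in mice) that enter cells and bind the glucocorticoid receptor, which is held in the cytoplasm by heat shock protein chaperones. The bound receptor moves to the nucleus, where it raises transcription of some genes through glucocorticoid response elements and lowers transcription of many inflammatory genes. Cardiomyocytes, fibroblasts, endothelial cells and leukocytes all carry the receptor, and the adrenal secretes corticosterone in a daily rhythm and under stress.

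Totals ranged from 1237675 to 4738307 counts per library. Cardiomyocyte markers summed to 68804 to 81931 CPM in sham (CPM, counts scaled to a library of 1000000 after trimmed mean, TMM, scaling) and to 2847 to 30460 CPM in the IZ. All 9 cardiomyocyte markers were called lower in the IZ, while 4 of 4 tested neutrophil (of 10 listed), 8 of 8 macrophage, 6 of 7 fibroblast and 6 of 6 proliferation markers were called higher. Over all 12301 genes tested, 36.3% were called higher and 33.1% lower. Some markers, such as Csf3r, Mmp8 and Ccnb1 with at most 3 counts in any sham library, passed the filter on low counts only through the IZ. Of the other marker lists, 3 of 6 endothelial genes were called lower, 2 of 5 smooth muscle and pericyte genes higher and 3 lower, and 1 tested B cell gene higher. No T cell or adipocyte marker passed the filter on low counts. IZ replicate 1 stood apart, with 19.5% mitochondrially encoded counts against 4.22% to 6.78% in the other IZ libraries and 22.9% to 32.4% in sham. Its cardiomyocyte sum was the highest of the IZ, followed by 6861 CPM, and several values are also given without it below. In bulk tissue such as this, fewer cells of a type and less RNA per cell cannot be told apart.

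Promoter windows of the genes that the covariation results below turn on, and of Klf15, which had the largest difference between the groups, are shown so that receptor and clock motifs can be seen in place. Only windows that hold a match are printed, and for genes with several windows the one with the most matches. The windows are RefSeq sequences of GRCm38.p6, 250 bases before to 50 bases after an annotated start, written in the direction of transcription. Capitals mark matches on either strand to the glucocorticoid response element core (arms GNACA and TGTNC with NNN between them), to its half-site AGAACA and to the E-box CACGTG, the motif bound by CLOCK and BMAL1.
Sgk1, chr10:21993640-21993939, plus strand: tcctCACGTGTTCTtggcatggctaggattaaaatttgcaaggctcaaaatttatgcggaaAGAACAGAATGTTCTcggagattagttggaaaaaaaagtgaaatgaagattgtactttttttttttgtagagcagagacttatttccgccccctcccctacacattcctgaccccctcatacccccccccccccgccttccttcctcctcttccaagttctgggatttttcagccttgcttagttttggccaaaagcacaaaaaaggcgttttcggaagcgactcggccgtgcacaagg
Tsc22d3, chrX:140600473-140600772, minus strand: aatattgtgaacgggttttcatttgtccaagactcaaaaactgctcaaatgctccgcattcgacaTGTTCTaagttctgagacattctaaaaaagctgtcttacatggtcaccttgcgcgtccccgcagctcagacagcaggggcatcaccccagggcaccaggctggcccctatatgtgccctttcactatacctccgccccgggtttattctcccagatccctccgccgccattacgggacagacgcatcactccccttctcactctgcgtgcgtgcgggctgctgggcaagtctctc
Per1, chr11:69098699-69098998, plus strand: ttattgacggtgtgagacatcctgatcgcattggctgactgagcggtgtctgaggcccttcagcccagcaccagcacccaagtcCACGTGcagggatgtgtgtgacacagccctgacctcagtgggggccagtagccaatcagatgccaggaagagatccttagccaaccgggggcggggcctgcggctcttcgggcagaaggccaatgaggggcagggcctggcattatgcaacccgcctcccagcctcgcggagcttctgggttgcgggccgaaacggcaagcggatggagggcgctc
Fkbp5, chr17:28486100-28486399, minus strand: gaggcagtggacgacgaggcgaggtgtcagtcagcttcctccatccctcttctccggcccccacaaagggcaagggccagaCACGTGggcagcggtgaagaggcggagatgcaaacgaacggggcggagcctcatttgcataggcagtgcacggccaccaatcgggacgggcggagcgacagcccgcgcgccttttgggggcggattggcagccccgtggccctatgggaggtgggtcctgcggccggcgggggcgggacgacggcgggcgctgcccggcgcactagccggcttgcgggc
Klf15, chr6:90462326-90462625, plus strand: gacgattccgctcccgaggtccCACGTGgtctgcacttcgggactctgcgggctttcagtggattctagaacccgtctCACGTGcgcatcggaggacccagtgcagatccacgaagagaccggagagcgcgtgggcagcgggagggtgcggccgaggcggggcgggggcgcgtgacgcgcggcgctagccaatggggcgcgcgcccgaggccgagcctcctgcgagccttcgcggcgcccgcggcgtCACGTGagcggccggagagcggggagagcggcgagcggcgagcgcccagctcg

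In all, 17 windows of 8 of the genes were searched, and none was used for Zbtb16 and Nr3c1. Neither window of Cdkn1a held a match. The response element core occurred in 1 of the 17 windows, the Sgk1 window shown, 188 bases before the start, and in 0.475% of 32851 mouse promoter windows. Its arms overlap half-sites at 189 and 180 bases before that start, and a further half-site at 242 bases overlaps an E-box at 246 bases. Half-sites were found in 4 of the 17 windows, belonging to 2 genes, Sgk1 and Tsc22d3 (185 bases before the start shown), and in 19.0% of all windows. E-boxes were found in 4 of the 17 windows, belonging to 4 genes, and in 7.15% of all windows. Klf15 held 3, at 228, 172 and 3 bases before its start, Fkbp5 held 1 at 169 bases and Per1 held 1 at 166 bases. These are letter matches in short windows and say nothing on whether a factor was bound.

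Of the 10 genes, 9 passed the filter on low counts, and only Lcn2 did not. Fkbp5 and Cdkn1a were called higher in the IZ, Klf9, Klf15, Zbtb16 and Nr3c1 were called lower, and Tsc22d3, Per1 and Sgk1 were not called (edgeR quasi-likelihood test, adjusted p threshold 0.05). Among all 12301 genes tested, 69.5% were called, 36.3% higher and 33.1% lower, and the contrast chose the genes, so nothing is read from these counts. Every IZ library lay above every sham library for Cdkn1a, as for 16.6% of all genes tested, and every IZ library lay below every sham library for Klf15, as for 16.5%. In the values that follow, ± after a CPM is the SD over libraries, and each log2 fold change is IZ against sham ± its standard error.

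**Figure D1:**
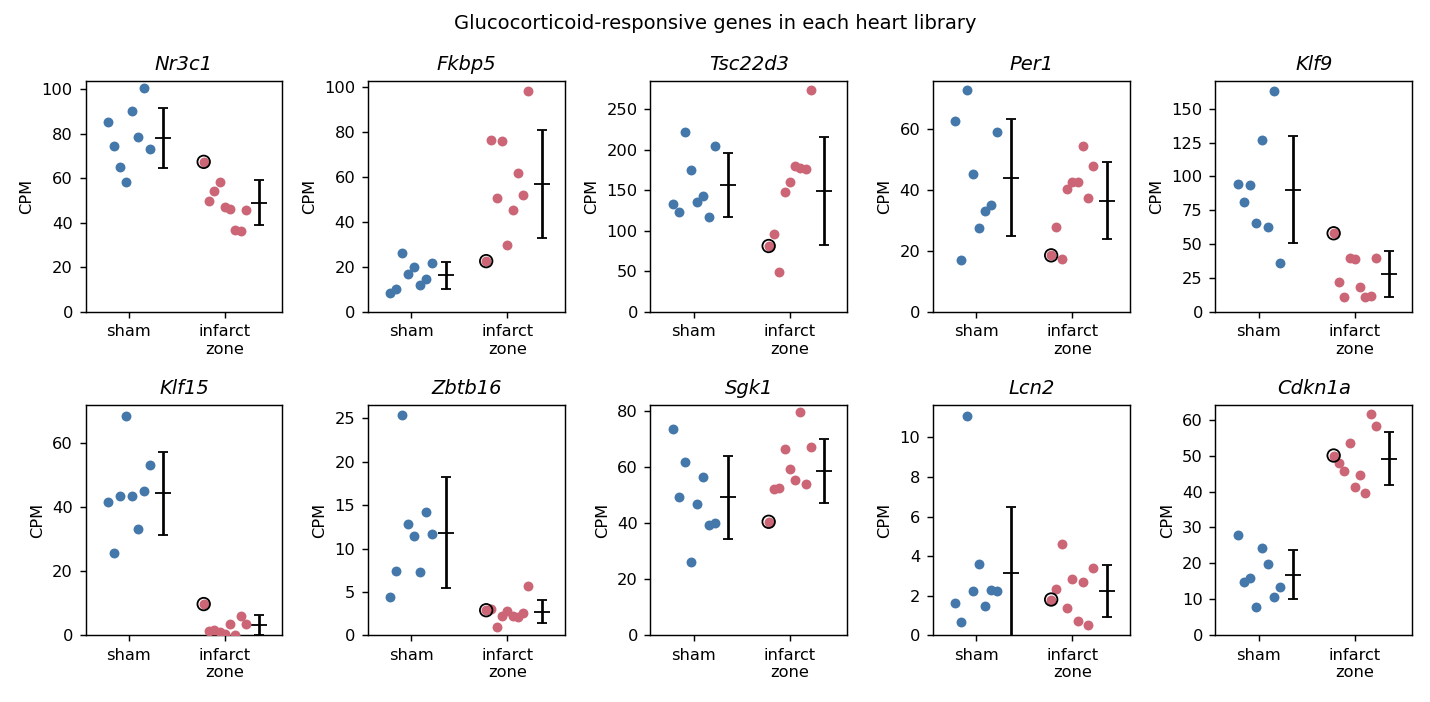
Expression of the 10 glucocorticoid-responsive genes in each library (vertical axes, CPM on linear axes from 0). Blue points are the 8 sham and red points the 9 IZ libraries, the circled point is IZ replicate 1, and bars give the mean and SD, cut at 0 where they would run below it. The groups do not overlap for Klf15 and Cdkn1a and overlap widely for Tsc22d3, Per1, Sgk1 and Lcn2.

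Nr3c1 (ENSMUSG00000024431, chromosome 18) encodes the glucocorticoid receptor itself. In sham it ranged from 58.5 to 101 CPM with a median of 76.7, and in the IZ from 36.1 to 67.4 CPM with a median of 47.0. The groups overlapped only through IZ replicate 1, the highest IZ library, and the other 8 IZ libraries lay below every sham library. Its log2 fold change was -0.67 ± 0.13 and turned to 0.41 when libraries were scaled by total counts alone. The means were 78.3 ± 13.6 CPM (n = 8) in sham and 49.1 ± 9.95 CPM (n = 9) in the IZ, or 46.8 ± 7.69 CPM (n = 8) without IZ replicate 1.

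Fkbp5 (ENSMUSG00000024222, chr17:28399094-28517527, minus strand) encodes FKBP51, a cochaperone that lowers the affinity of the receptor for its ligand and that the receptor induces in a feedback loop. Sham libraries held 8.21 to 26.1 CPM (median 15.7) and IZ libraries 22.5 to 98.0 CPM (median 51.6). IZ replicate 1 was the lowest IZ library and the only one within the sham range. The mean was 16.1 ± 6.13 CPM (n = 8) in sham and 56.8 ± 23.9 CPM (n = 9) in the IZ, a log2 fold change of 1.83 ± 0.26. Without IZ replicate 1 the IZ mean was 61.1 ± 21.6 CPM (n = 8).

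Tsc22d3 (ENSMUSG00000031431, chrX:140539528-140600659, minus strand) encodes GILZ, a leucine zipper protein through which glucocorticoids restrain NF-kappaB and AP-1. Its sham levels ran from 117 to 222 CPM (median 139) and its IZ levels from 48.6 to 274 CPM (median 160). Both the lowest and the highest library were from the IZ, and 3 IZ libraries lay below and 1 above the sham range. The log2 fold change was -0.08 ± 0.24 and changed sign with the scaling and with single libraries: it was 1.01 on total counts alone, 0.003 without sham replicate 3, 0.01 without IZ replicate 2 and 0.07 without IZ replicate 3.

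Per1 (ENSMUSG00000020893, chr11:69095217-69109960, plus strand) encodes a repressor of the circadian clock and is an immediate target of the receptor. Levels ranged from 17 to 72.8 CPM in sham (median 40.1) and from 17.3 to 54.2 CPM in the IZ (median 40.4). All IZ libraries lay within the sham range. The log2 fold change was -0.29 ± 0.25, and 0.80 on total counts alone. The spread over libraries was wide in both groups, with a coefficient of variation of 43.8% in sham and 34.9% in the IZ where counting alone would give 11.7% and 10.3%.

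Klf9 (ENSMUSG00000033863, chr19:23141226-23168134, plus strand), Klf15 and Zbtb16 encode zinc finger transcription factors that the receptor induces. Klf9 ranged from 36.1 to 163 CPM in sham (median 87.1) and from 10.8 to 58.0 CPM in the IZ (median 21.7). The groups overlapped, with 5 of 9 IZ libraries below the sham range. The mean fell from 90.3 ± 39.8 CPM (n = 8) to 27.8 ± 16.8 CPM (n = 9), a log2 fold change of -1.71 ± 0.32, and was 24.0 ± 13.3 CPM (n = 8) without IZ replicate 1, the highest IZ library.

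Klf15 (ENSMUSG00000030087, chr6:90462576-90475238, plus strand), a factor known in heart muscle for control of lipid and amino acid use, had the largest difference of the group. Sham libraries held 25.8 to 68.6 CPM (median 43.5) and IZ libraries 0 to 9.78 CPM (median 1.81). IZ replicate 7 had 0 of 1220700 counts, which allows up to 1.63 CPM, a limit of 3 counts that covers counting error only. IZ replicate 1, with the most cardiomyocyte marker RNA of the IZ, had the highest Klf15 level of the IZ. IZ replicate 5, next in cardiomyocyte sum at 6861 CPM, held 1 Klf15 count (0.566 CPM). Over the 9 IZ libraries Klf15 had an r of 0.635 with cardiomyocyte markers (exact permutation p = 0.0698, adjusted p = 0.681), or 0.417 without IZ replicate 1. The mean was 44.3 ± 12.8 CPM (n = 8) in sham, 3.16 ± 3.14 CPM (n = 9) in the IZ and 2.33 ± 2.05 CPM (n = 8) without IZ replicate 1, and the log2 fold change was -3.90 ± 0.35.

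Zbtb16 (ENSMUSG00000066687, chr9:48654297-48836222, minus strand) encodes PLZF. It ranged from 4.38 to 25.3 CPM in sham (median 11.5) and from 0.989 to 5.74 CPM in the IZ (median 2.58). Only IZ replicate 9 reached the sham range. The log2 fold change was -2.12 ± 0.32, on as few as 4 counts in 1 IZ library, and the means were 11.8 ± 6.37 CPM (n = 8) in sham and 2.74 ± 1.29 CPM (n = 9) in the IZ.

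Sgk1 (ENSMUSG00000019970, chr10:21882184-21999903, plus strand) encodes a kinase that acts on ion channels and transporters and is induced by glucocorticoids and mineralocorticoids. Sham libraries held 26.2 to 73.9 CPM (median 48.3) and IZ libraries 40.6 to 79.7 CPM (median 55.6). The groups overlapped for all but IZ replicate 7. Its log2 fold change was 0.26 ± 0.16, and 1.35 on total counts alone.

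Lcn2 (ENSMUSG00000026822, chr2:32384633-32388252, minus strand) encodes lipocalin 2, an iron carrier protein of neutrophils that is also made by injured tissue. It reached 0.679 to 11.1 CPM in sham (median 2.23) and 0.516 to 4.61 CPM in the IZ (median 2.37), on 1 to 28 counts per library. The medians lay close together and 1 IZ library fell below the sham range, while 4 of 4 tested neutrophil markers were called higher in the IZ. The rest of the 10 listed neutrophil markers, like Lcn2, did not pass the filter on low counts. Among these the IZ mean was lower than in sham for Ltf and Ngp and higher for Retnlg, Cxcr2, Ly6g and Camp, at no more than 0.987 CPM. Sham replicate 3 held the highest value of either group.

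Cdkn1a (ENSMUSG00000023067, chr17:29090976-29100727, plus strand) encodes p21, an inhibitor of cyclin-dependent kinases that p53 and glucocorticoids both induce. Sham libraries ran from 7.81 to 27.9 CPM (median 15.4) and IZ libraries from 39.6 to 61.4 CPM (median 48). The groups did not overlap. The mean was 16.8 ± 6.79 CPM (n = 8) in sham and 49.2 ± 7.38 CPM (n = 9) in the IZ, a log2 fold change of 1.55 ± 0.18. Its coefficient of variation was 40.3% in sham and 15.0% in the IZ, where counting alone would give 18.9% and 8.45%.

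Scaling by total counts alone moved the median log2 fold change of all genes by 1.09, to 1.14, and set the directions of the genes with small differences. Measured from that median, Tsc22d3 stood at -0.14, Per1 at -0.34, Nr3c1 at -0.73 and Sgk1 at 0.21, and measured from the median under TMM they stood at -0.13, -0.34, -0.72 and 0.20. Between the scalings these distances differed by at most 0.01 for these 4 genes. The called cell type markers given above moved between the groups with these genes, and their part in these differences was not tested.

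The other genes of the pathway, from lists drawn up with earlier results in view, are set beside the same median over all genes tested, 0.05. Their calls stand beside the shares over all genes tested, 36.3% called higher and 33.1% lower. Of 4 tested genes of receptor and ligand supply, H6pd, which feeds cofactor to the enzyme that regenerates corticosterone, was called higher (log2 fold change 0.89 ± 0.15). Nr3c2, the mineralocorticoid receptor, was called lower (-3.36 ± 0.32), as were Nr3c1 itself and Hsd11b1, which encodes that enzyme (-2.07 ± 0.19), and the list median was -1.37. Hsd11b1, and below Dnaja1, Il1b, Ccl2, Ccl7, Icam1, Nos2, Btg2, Klf3 and Klf13, are named to account for small counts, after their values were seen. On total counts alone 2 were called higher and 2 lower, with a median of -0.29. The median of all genes was then 1.14 and 10727 of 12301 genes were called, so list medians on that scaling stand against 1.14.

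Receptor chaperones split, with 2 of 10 called higher and 5 lower and a median of -0.29. Hsp90aa1, an inducible HSP90 that holds the receptor ready for ligand, was the highest (0.81 ± 0.16), and Dnaja1 was the other called higher (0.35 ± 0.12). Fkbp4, which encodes FKBP52, the cochaperone that opposes FKBP51, was the lowest (-2.34 ± 0.18), so the related Fkbp4 and Fkbp5 were called in opposite directions. Of 12 receptor coregulators, 1 was called higher and 6 lower, the coactivator Ncoa2 the most (-0.92 ± 0.15), with a median of -0.27. Scaled by total counts alone, 8 chaperones were called higher and 1 lower (median 0.80), and 11 coregulators higher and 0 lower (median 0.80). Both medians lay below that of all genes on that scaling, 1.14. In each list 4 genes lay above the all-gene median under either scaling.

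Among 32 tested of 37 other genes that glucocorticoids are known to induce, 9 were called higher, 14 lower and 9 were not called, with a median of -0.30. Anxa1, which encodes the anti-inflammatory annexin A1, was the highest (2.69 ± 0.18), and Pdk4, a kinase that holds back glucose oxidation in muscle, was the lowest (-3.52 ± 0.40). Of 7 tested of 12 genes that glucocorticoids are known to repress, 5 were called higher and 2 lower, with a median of 1.88. The chemokine gene Cxcl10 was the highest (3.81 ± 0.65), and Il1b, Ccl2, Ccl7 and Icam1 were the others called higher, Ccl2 the most of these (3.37 ± 0.40). Sham counts of Cxcl10 and Il1b never exceeded 5, and those of Ccl2 ran from 2 to 11. These genes thus entered the test only through the IZ and could hardly be called lower. Among the untested genes, Tnf had a lower mean in the IZ (0.42 CPM) than in sham (0.90 CPM). For Il6, Ptgs2, Il1a and Csf2 the IZ mean was the higher one. No direction of the list is read from its count or median. The adhesion molecule gene Vcam1 was the lowest (-1.05 ± 0.29), and Nos2 was also called lower (-0.79 ± 0.32). Scaled by total counts alone, 19 induced genes were called higher and 6 lower (median 0.78), and 5 repressed genes higher and 0 lower (median 2.99). Under either scaling 13 induced and 5 repressed genes lay above the median of all genes.

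Clock genes other than Per1 had 0 of 17 tested called higher, 11 lower and 6 not called, with a median of -0.84. Over all genes tested, 36.3% were called higher and 33.1% lower. Hlf, a clock output factor, was the lowest (-3.53 ± 0.31), and Arntl, which encodes BMAL1, was at 0.72 ± 0.38 and not called. On total counts alone 7 were called higher and 4 lower, with a median of 0.25. Under either scaling 2 of the 17 lay above the median of all genes. Of 12 tested genes of the p53 list (Trp53 itself and genes that, like Cdkn1a, it induces), 8 were called higher, 2 lower and 2 were not called, with a median of 1.10. Phlda3 was the highest (2.32 ± 0.18) and Ccng1 the lowest (-2.05 ± 0.17), with Btg2 also called lower (-1.36 ± 0.32), and the count was 10 higher and 1 lower on total counts alone (median 2.17). Sham counts never exceeded 5 for Eda2r, 8 for Sesn2 and 11 for Bbc3, and fell to 1 for Trp53. These genes, all called higher, passed the filter on low counts through the IZ and could hardly be called lower. No direction of the p53 list is read from its count or median. Of 20 tested relatives from the same gene families, 3 were called higher and 11 lower, with a median of -0.56. Klf6 was the highest (0.81 ± 0.16), beside Klf3 and Klf13. Total counts alone gave 10 higher and 4 lower with a median of 0.52, against 1.14 for all genes.

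**Figure D2:**
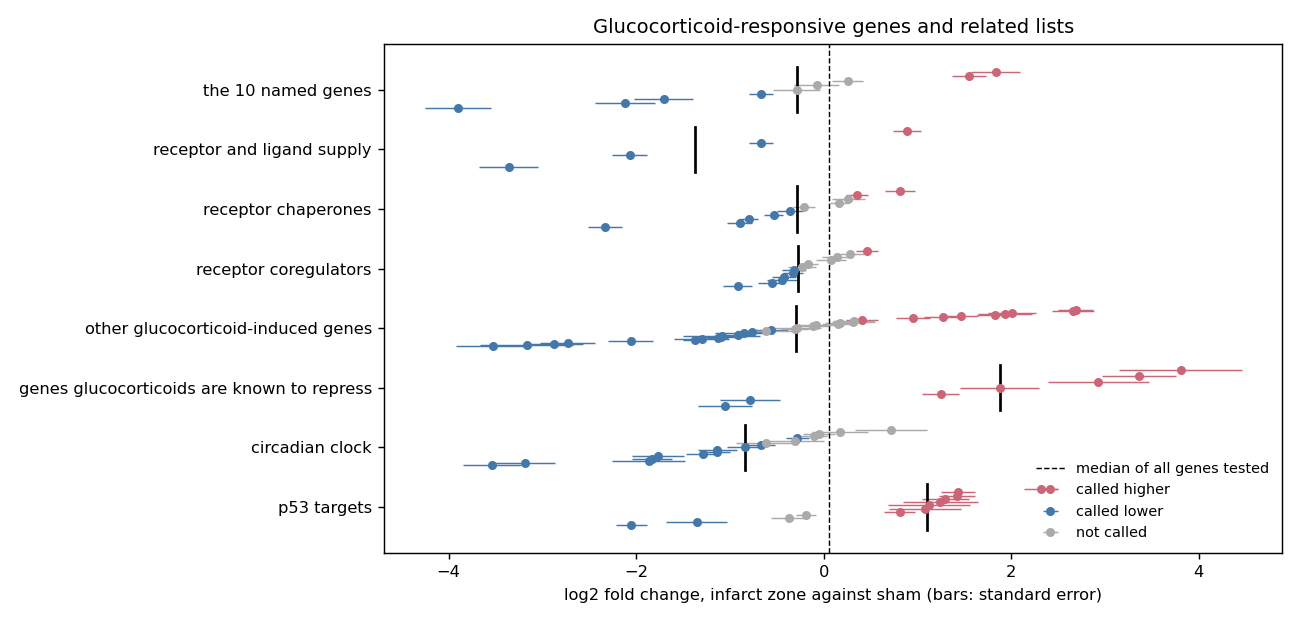
Log2 fold change of IZ against sham (horizontal axis, TMM scaling) for the tested genes of each list, with bars for the standard error and a black line at the list median. Red points were called higher, blue points lower and grey points not called, and the dashed line is the median of all genes tested (0.05). Genes known to be repressed by glucocorticoids and p53 targets have medians of 1.88 and 1.10, and the clock list has the lowest median after receptor and ligand supply. The median of 1.88 includes Cxcl10, Il1b and Ccl2, which passed the filter on low counts only through the IZ. That of 1.10 includes Eda2r, Sesn2, Bbc3 and Trp53, which the sham libraries alone would not have passed either. On total counts alone every list median stands higher, as does that of all genes, at 1.14. Those of the chaperones, coregulators, induced genes and clock genes are then above 0 and below 1.14.

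Whether the 10 genes varied together among hearts of the same group was examined next. Pearson's r of log2 CPM was computed for all 45 pairs in each group, with exact two-sided permutation tests and adjustment over the 90 pairs. None of the 45 pairs passed an adjusted p of 0.05 in sham (smallest exact permutation p = 0.00231, adjusted p = 0.0886) and none in the IZ (smallest exact permutation p = 0.000774, adjusted p = 0.0697). In each group 6 of 45 pairs had an unadjusted p under 0.05. The median r over the 45 pairs was 0.162 in sham and 0.124 in the IZ, with a range of -0.735 to 0.896 and of -0.749 to 0.923. Of the 36 pairs of tested genes, 2 reached an r of 0.8 in sham and 2 in the IZ, where 1.31% and 1.68% of all gene pairs did. None was at -0.8 or below in either group, where 1.14% of all gene pairs were in sham and 1.44% in the IZ.

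**Figure D3:**
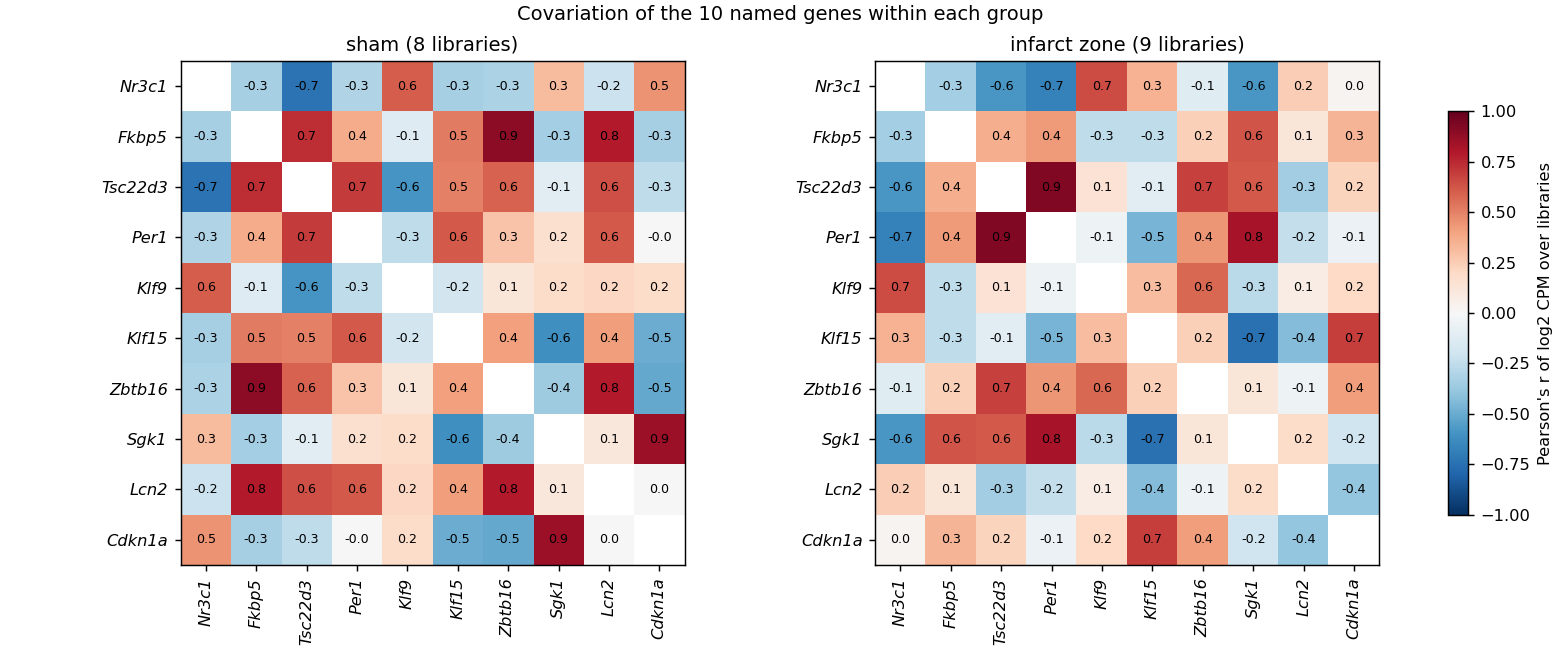
Pearson's r of log2 CPM between the 10 genes over the 8 sham libraries (left) and the 9 IZ libraries (right), with red for positive and blue for negative values. The strongest pairs are Fkbp5 with Zbtb16 (0.896) and Sgk1 with Cdkn1a (0.856) in sham and Tsc22d3 with Per1 (0.923) and Per1 with Sgk1 (0.821) in the IZ, and no pair passed the adjusted test in either group.

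In sham, Fkbp5 and Zbtb16 had the highest r. The library lowest in both was sham replicate 1 (8.21 and 4.38 CPM), and the library highest in both was sham replicate 3 (26.1 and 25.3 CPM). Pearson's r was 0.896 (exact permutation p = 0.00231, adjusted p = 0.0886) and Spearman's rho 0.762 (exact permutation p = 0.0368, adjusted p = 0.369). Without the 2 libraries farthest from the median of the first named gene r was 0.712, and in the IZ, with all libraries, it was 0.237. The same rule was used for the pairs below, so libraries that lie far out in the second gene alone stay in. Lcn2 was highest in the same library, sham replicate 3, and had an r of 0.793 with Fkbp5 and of 0.791 with Zbtb16. Tsc22d3 was highest there too, at 222 CPM, and had an r of 0.736 with Fkbp5.

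Sgk1 and Cdkn1a formed the second sham pair. Sham replicate 4 was lowest in both, at 26.2 and 7.81 CPM, and sham replicate 1 was highest in both, at 73.9 and 27.9 CPM. Pearson's r was 0.856 (exact permutation p = 0.00727, adjusted p = 0.164) and rho 0.833 (exact permutation p = 0.0154, adjusted p = 0.369). It was 0.514 without the 2 libraries farthest from the median and -0.196 in the IZ, and whether the groups differ in it was not tested.

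In the IZ, Tsc22d3 and Per1 were the closest pair. IZ replicates 1, 2 and 3 were the lowest in both genes, with Tsc22d3 at 81.2, 95.5 and 48.6 CPM and Per1 at 18.5, 27.7 and 17.3 CPM. The other 6 libraries held 148 to 274 CPM of Tsc22d3 and 37.2 to 54.2 CPM of Per1. Over all 9, r was 0.923 (exact permutation p = 0.000774, adjusted p = 0.0697) and rho 0.900 (exact permutation p = 0.00203, adjusted p = 0.138), and r was 0.781 without the 2 libraries farthest from the median and 0.934 without IZ replicate 1. Leaving out any 1 IZ library gave an r of 0.876 to 0.944. IZ replicates 1, 2 and 3 held 2650935 to 4738307 counts against 1237675 to 3394511 in the other 6, and the part of depth was not tested. In sham r was 0.700 (exact permutation p = 0.0569, adjusted p = 0.383).

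Per1 and Sgk1 followed, and IZ replicates 1, 2 and 3 were also the lowest in Sgk1, at 40.6, 52.5 and 52.6 CPM. IZ replicate 7 was the highest in both, with 54.2 CPM of Per1 and 79.7 CPM of Sgk1. Pearson's r was 0.821 (exact permutation p = 0.00295, adjusted p = 0.0886) and rho 0.883 (exact permutation p = 0.00308, adjusted p = 0.138). It was 0.816 without the 2 libraries farthest from the median and 0.724 without IZ replicate 1. In sham it was 0.162 (exact permutation p = 0.706), and the difference between the groups was not tested. The Sgk1 window shown above holds the response element core, half-sites and an E-box. The Tsc22d3 window holds a half-site, and the Per1 window an E-box and neither of the other motifs.

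**Figure D4:**
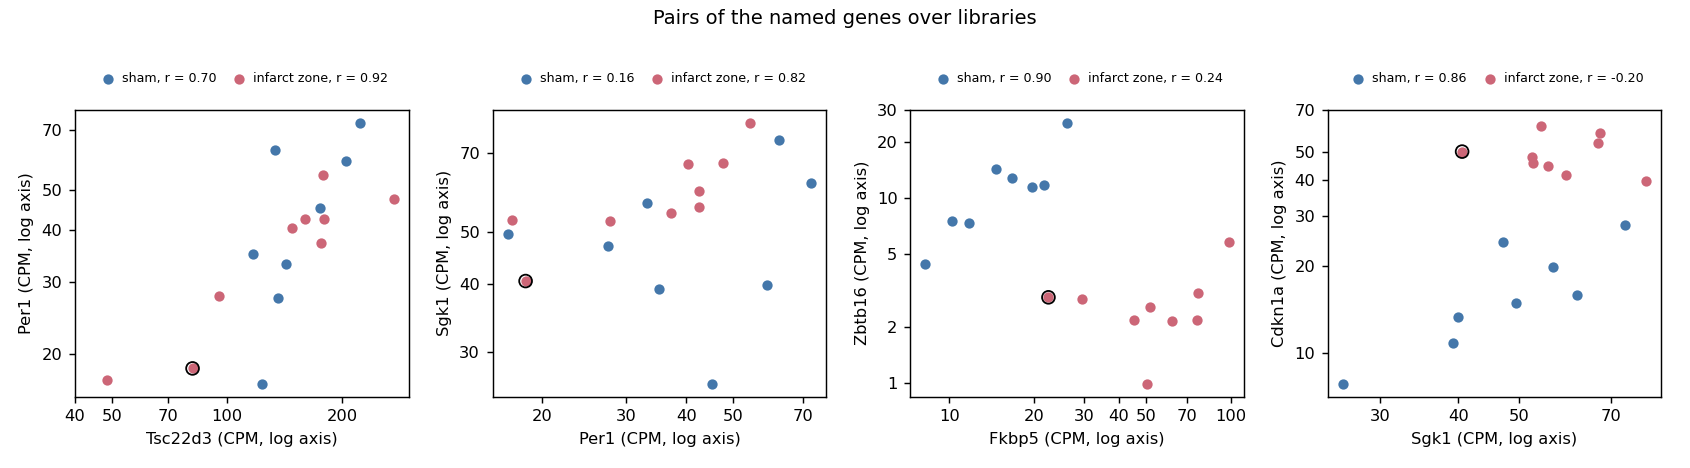
CPM of 4 gene pairs in each library, on log axes, with sham in blue and the IZ in red and IZ replicate 1 circled. Tsc22d3 and Per1 are lowest together in 3 IZ libraries, Per1 with Sgk1 has an r of 0.82 in the IZ and 0.16 in sham, and Fkbp5 with Zbtb16 and Sgk1 with Cdkn1a have an r of 0.90 and 0.86 in sham and of 0.24 and -0.20 in the IZ.

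The receptor gene had negative r with Tsc22d3 and Per1 in both groups, none past the adjusted test. Nr3c1 had an r of -0.735 with Tsc22d3 in sham (exact permutation p = 0.0401, adjusted p = 0.363) and of -0.585 in the IZ (exact permutation p = 0.0983, adjusted p = 0.398). With Per1 it was -0.304 in sham and -0.673 in the IZ (exact permutation p = 0.0483, adjusted p = 0.363 in the IZ), or -0.500 without IZ replicate 1. With Klf9, r was 0.603 in sham and 0.654 in the IZ, or 0.487 without IZ replicate 1. The Klf9 and Klf15 pair, both targets of the receptor that were called lower in the IZ, had an r of -0.180 in sham and 0.305 in the IZ, or 0.029 without IZ replicate 1. In the IZ, Klf15 had an r of -0.749 with Sgk1 and of 0.690 with Cdkn1a, neither past the adjusted test. The first came to -0.561 without IZ replicate 7, the library with 0 Klf15 counts. It came to -0.147 without the 2 libraries farthest from the median, and its rho was -0.550 (exact permutation p = 0.133). The second was 0.681 without the 2 farthest libraries and 0.261 on total counts alone.

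Each gene was also set against 11 library measures, the summed level of 10 marker lists and the mitochondrially encoded share. None of the 220 relations passed an adjusted p of 0.05 (smallest adjusted p = 0.276 in the IZ and 0.681 in sham), and 6 in the IZ and 7 in sham had an unadjusted p under 0.05. Klf9 against neutrophil markers in the IZ came closest, with r = -0.880 (exact permutation p = 0.00126, adjusted p = 0.276), rho = -0.817 (exact permutation p = 0.0108) and r = -0.833 without IZ replicate 1. In sham, Klf9 had an r of 0.869 with the mitochondrial share (exact permutation p = 0.00828, adjusted p = 0.681), where rho was 0.524 (exact permutation p = 0.197). Fkbp5 in the IZ had an r of -0.728 with cardiomyocyte markers, which came to -0.391 without IZ replicate 1. Cdkn1a with macrophage markers in the IZ moved the other way, from an r of 0.376 over 9 libraries to 0.940 without IZ replicate 1 (exact permutation p = 0.000322, adjusted p = 0.0709). Fkbp5, Zbtb16 and Lcn2, which were highest together in sham replicate 3, had an r of 0.781, 0.816 and 0.737 with fibroblast markers in sham. Without the 2 libraries farthest from the median of the marker sum, these were 0.374, 0.243 and 0.444.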

How the data were processed

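Per the labels and the study's methods, total RNA was column-purified with DNase and sequenced as 3′ mRNA ends with unique molecular identifiers for removal of PCR duplicates. Reads were trimmed, mapped to mm10 and counted with HTSeq, and the submitters' processing notes also name bcl2fastq, Bowtie2 and DESeq2. The annotation release and the treatment of multi-mapping reads are not given in the sources used here. The deposited values are raw counts per gene, not normalized, for 31647 features in 17 libraries. Names came from GENCODE annotation of the same build. No listed gene shares its strand with another feature that has counts, and none has a near-identical 3′ end elsewhere (500 bases, at least 95% identity over 100 bases).

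The infarct zone was compared with sham by edgeR 4.0.16 under R 4.3.3 (default low count filter with a minimum of 10, TMM factors from 0.613 to 1.54, quasi-likelihood F-test, Benjamini-Hochberg adjustment over 12301 genes, threshold 0.05). Levels and covariation used CPM with a prior count of 1 on the log2 scale. Covariation used all 40320 (sham) or 362880 (IZ) pairings in exact two-sided permutation tests. At these depths, precision was limited by counting for the rarest genes, whose counts were as low as 0. The script for the test was checked on simulated counts. The genes and lists were chosen with earlier results of these data known. Named beside the 10 genes are the highest and lowest tested gene of each pathway list (1 of them is not reported here) and, where a listed gene averaged 10 CPM or more, the 2 genes of similar minimum level most like it over 17 libraries after group means were subtracted. Alternatives were DESeq2 1.42.0 size factors and Wald test, total counts alone, other filters, removal of mitochondrially encoded features, a prior count of 5, rank correlation, a replicate block and leaving out each library. Samples are separate mice per the study. Nothing in the labels gives a batch.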

Additional observations from a re-analysis of the deposited data

Results flagged for a closer look

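In 3 of the 20 sets of values (10 genes in 2 groups), 1 library lay far from the others, where chance gives about 1 in 20. Zbtb16 reached 25.3 CPM in sham replicate 3, where the next sham library held 14.3 CPM. Lcn2 was highest in the same library, at 11.1 CPM against 3.62 CPM in the next. In the IZ, Zbtb16 reached 5.74 CPM in replicate 9, the next being 3.06 CPM. The same IZ library held the highest levels of Tsc22d3 (274 CPM) and Fkbp5 (98.0 CPM).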

How the results depend on the processing

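Over up to 24 alternatives for the contrast, the calls of Klf9, Klf15, Fkbp5, Zbtb16 and Cdkn1a kept their direction and side of the threshold. A minimum mean of 50 counts left 5239 genes called in place of 8544 because fewer genes were tested, and Klf15 and Zbtb16 then had no value. Total counts alone gave 10727 calls, 85.8% of them higher against 52.3% under TMM, and turned Tsc22d3 to 1.01, Per1 to 0.80 and Nr3c1 to 0.41, all called, as was Sgk1 at 1.35. Leaving out 1 library moved Tsc22d3 between -0.217 and 0.067, uncalled, and it was above 0 without sham replicate 3 (0.003), IZ replicate 2 (0.013) or IZ replicate 3, and Sgk1 was called without sham replicate 1 (0.36). Leaving out 1 IZ library gave 0 to 1 called pairs: Per1 with Sgk1 without IZ replicate 3 (r = 0.917, exact permutation, adjusted p = 0.0402) and Tsc22d3 with Per1 without IZ replicate 7 (r = 0.944, exact permutation, adjusted p = 0.0290). Over all alternatives their adjusted p reached 0.387 and 0.180. On total counts alone 1 of the relations with markers in the IZ was called, Cdkn1a with macrophage markers (r = 0.794, exact permutation, adjusted p = 0.00970). The cause was not tested. With a replicate block 8079 genes were called. The numbers pair no samples known to belong together: same-numbered libraries had correlations of -0.216 to 0.128, and 1 of 8 correlated best with its own number. Genes at a few counts per library, Lcn2, Zbtb16 and IZ Klf15, are limited by depth.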

Other observations

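Over the 17 libraries, after the group means were subtracted, each gene was compared with all genes of at least 10 CPM, as a description with no test, in libraries that share depth and cell makeup. Klf15 varied most like Shld1 (r = 0.952) and Tnnt1 (0.930), a troponin T of slow muscle, and the Tnnt1 value was 0.985 within the IZ and 0.310 within sham. Fkbp5 varied most like Pgd, an enzyme of the pentose phosphate pathway (0.905), and Fam120a (0.865). Klf9 was closest to Ccni (0.889) and Cd81 (0.862), and Nr3c1 to Med25 (0.858) and Trir (0.849). For Tsc22d3 the nearest were Sec62 (0.821) and Atoh8 (0.820), for Sgk1 Baiap2 (0.881) and Nfya (0.878), and for Per1 Gm14251 (0.822) and Aen, a nuclease induced by p53 (0.792). Cdkn1a was closest to Snhg12 (0.795) and Utp18 (0.782), with 0.933 and 0.927 within sham and 0.007 and 0.166 within the IZ.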
